A study of Saccharomyces cerevisiae with 4 samples.

Results

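The 2 wild type arrays of a 4-array study of budding yeast were used to rank transcripts within growing cells. They were chosen by sample title, as replicates 1 and 2 of wild type cells. Both came from strain K699, with the genotype MATa, grown in rich medium (YP) with 2% glucose to an optical density of 0.3 and harvested in exponential growth. The other 2 arrays came from strain Y3501, labelled as lacking WPL1, and entered only a check of the labels. No treatment was given. The labels do not say that the 2 wild type arrays came from separate cultures, and the labels carry a different date tag for each.

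Yeast given ample glucose ferments it to ethanol even in the presence of air. Glucose at the same time represses genes for respiration, for other sugars and for the synthesis of glucose from smaller molecules. A fast-growing cell also spends much of its transcription on ribosomes, because protein synthesis limits growth. Mating-type genes set which pheromone and receptor a haploid cell makes, and the meiotic programme is held off until diploid cells starve.

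The Affymetrix Yeast Genome 2.0 array used here reads each transcript with a set of short probes, and the authors' values are log2 expression values. The array holds 10928 probe sets, of which 5498 could be placed on 5449 S. cerevisiae genes. A further 1746 read genes of the fission yeast S. pombe, which was not in the samples, and served as background. Background ended, by definition, at the 95th percentile of S. pombe signal in the same array. It stood at 6.02 in replicate 1 and 5.99 in replicate 2, against gene medians of 8.38 and 8.34. Paired values below are in that order, replicate 1 before replicate 2. A percentile is a gene's rank among the 5449 genes of its array. The signal of a probe set also depends on how well its own probes bind, and it is not corrected for transcript length, so ranks are ranks of signal and not of transcript copies. All results are descriptions of 1 group, with no test.

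In replicate 1, 5176 genes (95% of 5449) lay above background, and in replicate 2, 5180 (95.1%). Both arrays had 5130 genes above it (94.1%), and 96 genes were above it in 1 array alone. Another 223 genes (4.09%) were above it in neither array and are called silent below, which means not detected over this limit and not the absence of a transcript. The top group held the 232 genes (4.26%) above the 95th percentile of genes in both arrays. The middle group held the 513 genes (9.41%) between the 40th and 60th percentile in both. Log2 values of genes ran from 2.30 to 14.64 in replicate 1 and from 2.37 to 14.61 in replicate 2.

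**Figure D1:**
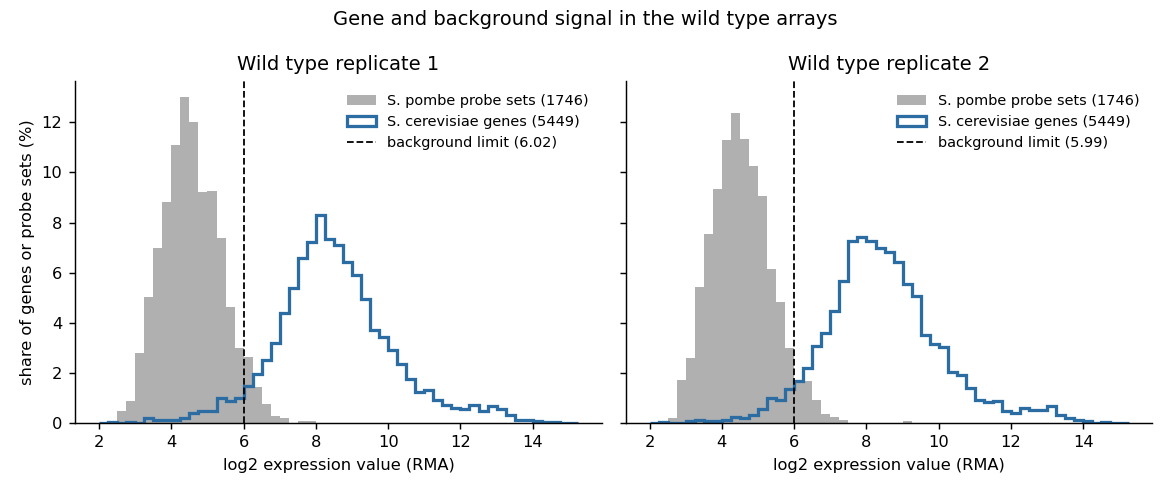
Share of S. cerevisiae genes (blue line, 5449) and of S. pombe probe sets (grey, 1746) by log2 expression value in each wild type array, with the background limit dashed at 6.02 and 5.99. The S. pombe probe sets centre on medians of 4.52 and 4.49, while the genes centre on 8.38 and 8.34 with a long upper tail.

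Few of the S. pombe probe sets used as background were bright. None of the S. pombe probe sets in replicate 1, and 1 in replicate 2, exceeded the gene median. That probe set, for the histone gene hta1, read 7.94 and 9.08. The next was his4, a histidine synthesis gene, at 7.53 and 7.27. The others of the 10 highest were mfm1, sat1, tef3, tef5, spi1, ubi3, dpb3 and sti1, between 6.54 and 7.40. A further 42 control probe sets for bacterial transcripts (dap, lys, phe, thr and trpn) had medians of 5.20 and 4.97. Of them, 5 and 6 passed the limit. Control probe sets for S. pombe, which were not among the 1746, were brighter. The 7 for its ribosomal RNA had medians of 10.48 and 10.71 and reached 14.55 and 14.51, and the 7 for its ACT1 and GPD3 had medians of 6.29 and 6.19 and reached 8.83 and 8.94. Bacterial and phage transcripts commonly added at hybridisation gave a rising series, with medians of 10.01 and 9.16 for bioB, 10.52 and 9.84 for bioC, 12.80 and 12.42 for bioD and 14.34 and 14.16 for cre. Only 2 genes in each array lay above the cre median, and 97 and 139 above bioD. Probe sets for yeast ribosomal RNA, which is most of total RNA, read 14.36 to 15.05 over both arrays, higher than all but the brightest genes.

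The labels were checked against marker genes. The gene of Wpl1, a cohesin-associated protein, appears under its standard name RAD61, and read 6.43 and 6.55 in wild type, above background in both arrays. It read 3.96 and 4.44 in the arrays labelled as deletions, not above background in either. Of 6 genes that mark a cells, 6 were above background in both wild type arrays, as were 94.1% of all genes. Their median percentiles were 86.2 and 90.4. The list of 7 a-specific genes had medians of 82.9 and 87.0. Its lowest member, not among the markers, had a mean percentile of 18.9. STE2, the receptor of a cells for alpha factor, read 10.65 and 11.07, and MFA2, an a-factor precursor, 11.16 and 11.75. The alpha-cell genes were lower, with median percentiles of 5.02 and 10.5. STE3, the a-factor receptor of alpha cells, read 4.34 and 4.86, not above background in either array. HMLALPHA1, an alpha regulator whose probe set is shared with related sequences, read 3.52 and 3.97, also not above background. The other 3 measured alpha markers were weakly above it in both arrays: the pheromone precursor genes MF(ALPHA)1, at 6.02 and 6.63, and MF(ALPHA)2, at 6.998 and 6.77, and the agglutinin gene SAG1, at 6.80 and 7.63. All 5 haploid markers were above background, among them GPA1, the pheromone G protein alpha subunit, at 9.66 and 9.52. Most genes were, so that count says little of cell type. The ranks of the a and alpha markers go with the labelled mating type.

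Markers of growth on glucose were mostly high. The 6 genes had median percentiles of 95.5 and 96.1, and all 6 were above background in both arrays, as were 94.1% of all genes. HXT4, a hexose transporter, was the lowest of them, at percentiles 37.2 and 61.8. Of 10 genes known from cells past glucose or in stationary phase, 6 were above background in both arrays and 3 in neither. Their median percentiles were 14.6 and 9.77. The 3 were PCK1, a gluconeogenic enzyme, the small heat shock gene HSP26 and SPG4. HSP12 and SNZ1 of the same list lay near the middle of the scale, at percentiles 41.2 and 64.7, and 35.4 and 69.2. The galactose genes GAL1 and GAL7 were not above background in either array, and GAL10 was in replicate 1 alone, at 6.13 and 5.70. Of 4 low-oxygen markers, 3 were above background in both arrays. ANB1, the anaerobic form of initiation factor eIF5A, read 8.66 and 8.98. HEM13, of haem synthesis, read 9.43 and 8.40, and TIR3, a wall mannoprotein, 6.92 and 6.41. DAN1, a wall mannoprotein of anaerobic cells, was silent at 4.41 and 4.48. Of 5 measured genes often used as strain markers, 5 were above background, as most genes were. They ran from ADE2 at 7.25 and 6.55 to LEU2 at 10.52 and 10.22.

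Translation made up most of the top group. Of 244 measured genes of the translation lists, 0 were silent, against 4.09% of all genes. The top group of 232 held 130 of the 244, against 4.26% of all genes. The cytosolic ribosomal protein genes supplied 114 of these. Their median percentiles were 98.1 and 98.2 over 127 measured genes. The interquartile range over members ran from 97.1 to 98.9, the narrowest of the 55 lists in percentile points. Percentiles are bounded at the top, so this does not compare the spread of signal between lists. RPP0, the base of the ribosomal stalk, read 13.78 and 13.37. RPS15, a small-subunit protein, read 13.64 and 13.34. RPL4A, a large-subunit protein read by a shared probe set, gave 13.86 and 13.34. Each of these lay above the 99th percentile in both arrays, and each read lower in replicate 2.

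Only 13 ribosomal protein genes lay outside the top group. The lowest were both the B copy of a duplicated gene: RPL15B read 8.37 and 8.08, at percentiles 49.8 and 42.6. RPL4B read 8.88 and 8.19, at percentiles 64.2 and 46.0. RPL9B, the third lowest, read 9.79 and 10.28. The other 10, of which RPS9A was the lowest and RPS10B the highest, had mean percentiles from 91.4 to 95.8. Copies of a ribosomal protein gene are nearly identical, and 29 of the 127 genes were read by probe sets that match more than 1 sequence, so the split between copies is uncertain.

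Among elongation factors, which carry tRNA to the ribosome and move it along the message, TEF2 read 14.40 and 14.17. It is a gene of eEF1A, and its probe set is shared. HYP2, the aerobic form of eIF5A, read 13.78 and 13.69. EFT2, a gene of the translocation factor eEF2 with a shared probe set, read 13.20 and 13.07. EFB1, which recharges eEF1A with GTP, read 13.12 and 12.52. HEF3, another gene of the fungal factor eEF3, stood apart at 6.13 and 6.07, just above background.

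Initiation factors and tRNA synthetases lay somewhat lower. The 25 initiation factor genes had median percentiles of 92.9 and 93.4. TIF2, a gene of the helicase eIF4A read by a shared probe set, was the highest at 13.30 and 13.62. PAB1, the poly(A)-binding protein, followed at 12.41 and 12.05. The lowest were subunits of eIF2B, the exchange factor of eIF2: GCD7 read 8.74 and 8.71, and GCD2 read 8.62 and 9.09. The 19 cytosolic tRNA synthetases had medians of 92.7 and 92.9. In the top group was 1 of them (5.26%, against 4.26% of all genes), THS1, for threonine, at 12.03 and 12.13. The lowest, FRS1, for phenylalanine, read 9.69 and 9.29, still above the gene median.

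Factors that build ribosomes ranked below the ribosome itself. Their 64 genes had median percentiles of 79.8 and 88.5. In the top group were 4.69% of them, close to the 4.26% of all genes, or 3 genes. These were NOP1 (fibrillarin), at 12.49 and 12.37, the pseudouridine synthase CBF5, at 11.84 and 12.37, and NOP58, a box C/D snoRNP protein, at 11.79 and 11.89. The lowest, UTP18 of the small-subunit processome, read 8.09 and 8.20. Nuclear RNA polymerase subunits were alike in rank, with medians of 80.5 and 84.98 over 31 genes. RPA190, the largest subunit of RNA polymerase I, read 11.21 and 11.54. RPC17, a polymerase III subunit, was above background in replicate 2 alone, at 5.92 and 7.31.

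**Figure D2:**
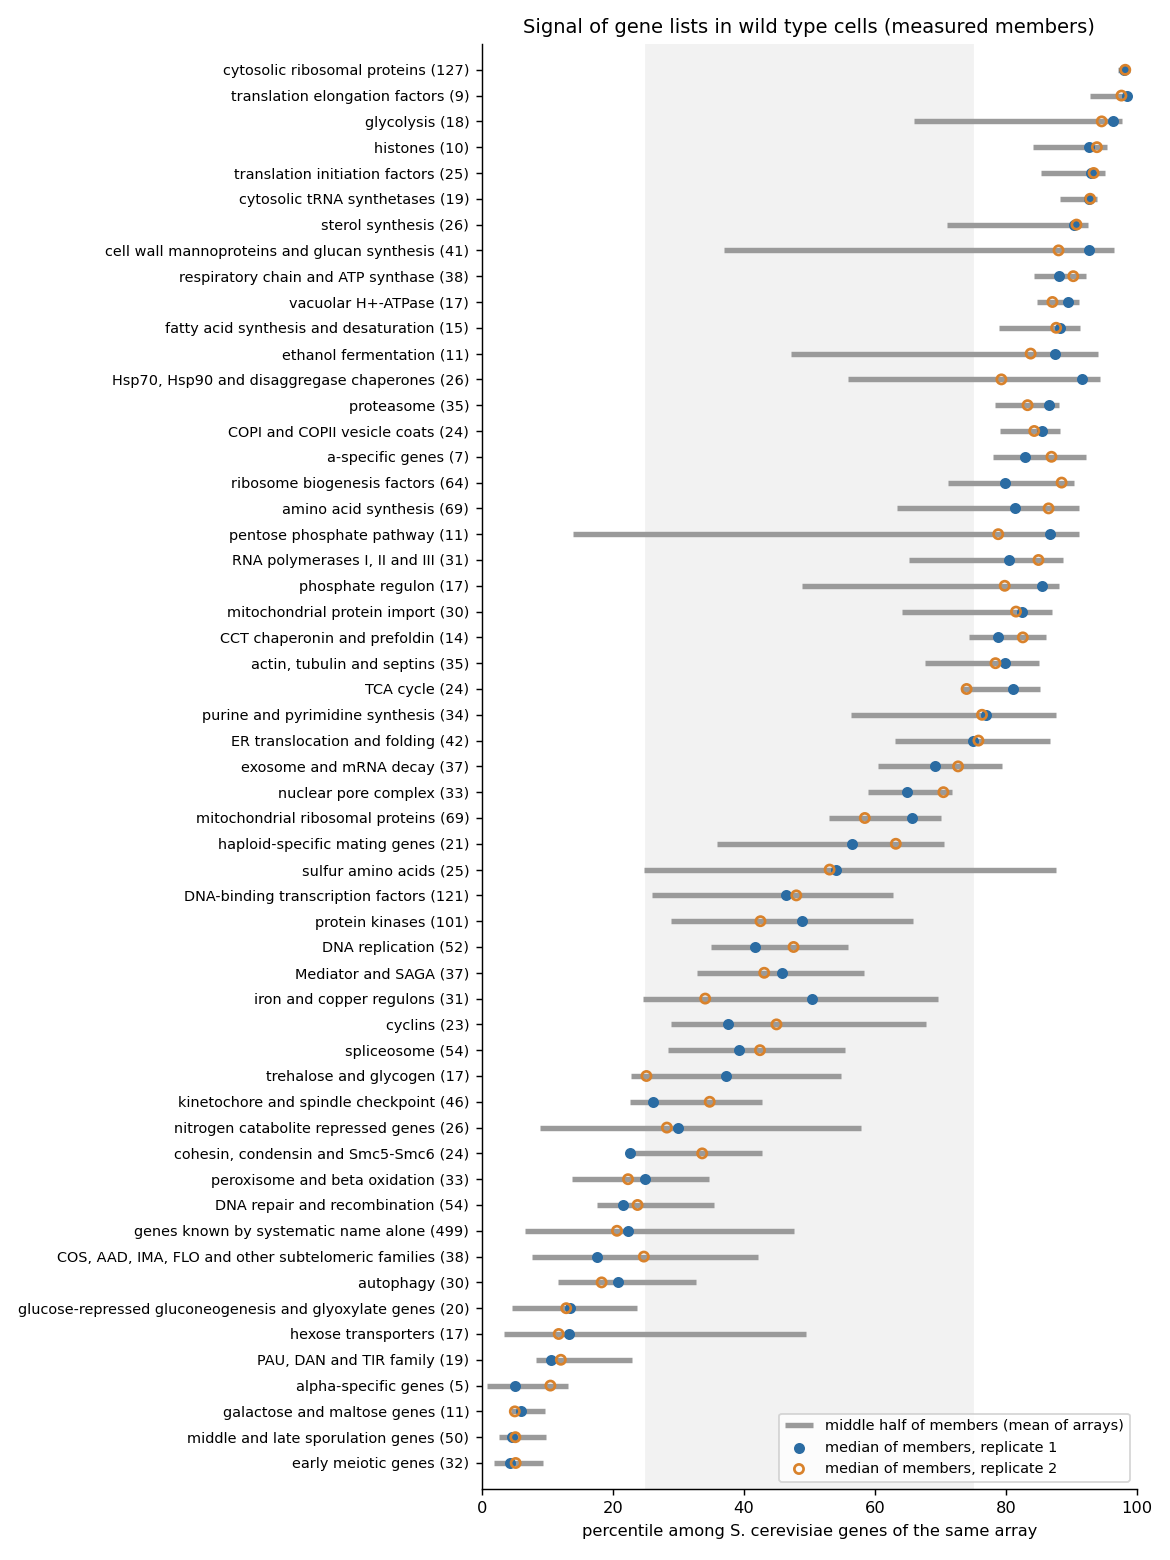
Median percentile of the measured members of 55 gene lists in replicate 1 (filled blue) and replicate 2 (open orange), with a grey bar for the interquartile range of the members' mean percentile and the number of measured members in parentheses. Cytosolic ribosomal proteins lie at 98.1 and 98.2, early meiotic genes at 4.24 and 5.15, and the shaded zone spans percentiles 25 to 75.

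Glycolysis ranked next to the ribosomal proteins and elongation factors, with a wide gap between the main and the minor isozymes. Of 18 measured glycolysis genes, 9 were in the top group, against 4.26% of all genes, and the medians were 96.4 and 94.6. TDH3, the main glyceraldehyde-3-phosphate dehydrogenase, read 14.14 and 13.86. ENO2, an enolase, read 14.09 and 13.51, and CDC19, the main pyruvate kinase, read 13.49 and 13.04. FBA1, the aldolase, read 12.89 and 13.22. At the other end GPM2, a relative of phosphoglycerate mutase, was silent at 4.99 and 4.98. PYK2, the minor pyruvate kinase, read 7.53 and 6.36. The 11 genes of ethanol fermentation ranked lower, with medians of 87.5 and 83.8. PDC1, the main pyruvate decarboxylase, read 13.82 and 13.03, and ADH1, which reduces acetaldehyde to ethanol, read 12.99 and 12.17. PDC6 was just above background at 6.20 and 6.16.

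Sugar transporters ranged over nearly the whole scale. Of 17 measured hexose transporter genes, 0 were in the top group and 5 (29.4%) were silent. Over all genes these shares were 4.26% and 4.09%. The median percentiles of the transporters were 13.3 and 11.7. HXT3, a low-affinity transporter, was the highest at 11.08 and 11.49. HXT2 read 10.87 and 10.74, and HXT1 read 9.87 and 10.28. HXT14 read 3.30 and 3.25, among the lowest values of all genes. HXT11, HXT17, HXT10 and HXT13 were the other silent transporters, at 4.55 to 5.72 over both arrays. The pentose phosphate pathway was split in the same manner, with an interquartile range from 13.9 to 91.1. Its main enzymes TKL1, a transketolase, at 11.83 and 11.53, and GND1, a 6-phosphogluconate dehydrogenase, at 11.99 and 11.02, were high. Their minor copies TKL2 and GND2 read 6.78 and 6.59, and 6.90 and 6.68.

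Genes for carbon sources other than glucose lay low. The 20 gluconeogenic and glyoxylate genes had median percentiles of 13.4 and 12.9, and 3 (15%) were silent, against 4.09% of all genes. These were PCK1, the first committed enzyme of gluconeogenesis, at 5.52 and 5.81, the mitochondrial succinate-fumarate carrier SFC1, at 5.03 and 5.04, and the carnitine carrier CRC1, at 4.73 and 4.99. SUC2, the invertase, was the highest of them at 8.73 and 8.10. Of 11 galactose and maltose genes, 3 were silent, GAL7 at 4.73 and 4.41, GAL1 at 5.69 and 5.41 and the maltase gene MAL32 at 5.92 and 5.97. GAL80, the repressor of the galactose genes, was the highest at 8.81 and 8.47. The 33 genes of peroxisomes and beta oxidation had medians of 24.9 and 22.3, and POX1, the acyl-CoA oxidase of beta oxidation, read 6.59 and 5.95, not above background in replicate 2.

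Respiratory genes were not low on this array. The 38 genes of the respiratory chain and ATP synthase had median percentiles of 88.2 and 90.3. Of them 0 were silent, but only 4.09% of all genes were, so that count says little. ATP2, the beta subunit of ATP synthase, read 12.20 and 11.73, and COX5A, the aerobic form of a cytochrome oxidase subunit, 11.12 and 11.06. The lowest was NDE2, an external NADH dehydrogenase, at 6.48 and 6.27. The 24 measured genes of the tricarboxylic acid cycle had medians of 81.1 and 74.0. Its highest member, PDB1 of pyruvate dehydrogenase, read 11.38 and 10.73. CIT3, a minor citrate synthase, was silent at 5.94 and 5.51. Mitochondrial ribosomal proteins, at medians of 65.6 and 58.5 over 69 genes, had 0 in the top group, against 114 of 127 for their cytosolic counterparts. Genes of mitochondrial protein import stood between, at 82.5 and 81.5. The import motor SSC1, an Hsp70, read 12.34 and 11.997.

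Of 109 measured genes of cell shape, wall and mating, 15 were in the top group, against 4.26% of all genes. The list of wall mannoproteins and glucan synthesis gave 14 of these, from 41 measured genes. CCW12, a mannoprotein of the wall, read 14.24 and 14.15, the third highest gene of all. The mannoproteins CWP2 and SED1 read 13.16 and 13.48, and 13.06 and 13.35. GAS1, which elongates wall glucan, read 13.001 and 12.55. The list was wide, with an interquartile range of 37.0 to 96.5. Its silent members were DAN1 and the sporulation glucan enzyme GAS4, at 4.60 and 4.62. The remaining top gene was ACT1, actin, at 12.48 and 12.36.

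Of 139 measured ion and lipid genes, 8 were in the top group, against 4.26% of all genes, so that count says little. By rank, the proton pumps and the synthesis of sterols and fatty acids were high. PMA1, the plasma membrane proton pump, belongs to none of the lists and read 13.73 and 13.41. Its small partner proteins PMP1 and PMP2, named after their values were seen, read 12.70 and 13.16, and 12.31 and 12.26. The 17 genes of the vacuolar proton pump had medians of 89.4 and 87.1 within a narrow interquartile range of 84.7 to 91.2. VMA3, a subunit of its membrane ring, read 12.39 and 12.14, and STV1, the Golgi form of a membrane subunit, 8.94 and 8.36. The 26 sterol genes had medians of 90.4 and 90.8. ERG11, lanosterol demethylase, read 12.07 and 11.88, while ARE1, which esterifies sterols for storage, read 8.39 and 7.70. In fatty acid synthesis FAS1, a fatty acid synthase subunit, read 11.83 and 11.78.

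Nutrient regulons held both extremes. PHO84, the high-affinity phosphate transporter, read 13.02 and 12.71, in the top group, while PHM7 of the same list was silent at 5.85 and 5.60. In the iron and copper list CUP1-1, a metallothionein with a shared probe set, read 12.25 and 12.78, and FIT1, a wall mannoprotein for iron uptake, was silent at 5.87 and 5.86. ILV5, an enzyme of branched-chain amino acid synthesis, was the highest of 69 amino acid synthesis genes at 13.10 and 13.13. ARG3, ornithine carbamoyltransferase, differed between the arrays, at 5.12 and 7.68, and was above background in replicate 2 alone. Genes repressed by good nitrogen sources had medians of 29.95 and 28.2 over 26 genes. GAP1, the general amino acid permease, read 9.50 and 10.38, and the GABA permease UGA4 was silent at 5.79 and 5.84.

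Chaperones were led by forms known from unstressed cells. SSB1 and SSB2, Hsp70s that bind chains leaving the ribosome, read 13.49 and 13.28 (a shared probe set), and 12.90 and 12.45. SSE1, their nucleotide exchange factor, read 12.06 and 12.32. SSA2, a cytosolic Hsp70, read 12.71 and 11.51. HSP26 was silent at 5.83 and 5.03. Larger assemblies were even in rank. The 35 proteasome genes had medians of 86.6 and 83.3 and an interquartile range of 78.3 to 88.1. In the top group were 0 of them, against 4.26% of all genes. RPN2, a base subunit, read 10.60 and 10.44, and RPN4, the transcription factor of proteasome genes, was the lowest at 8.90 and 8.61. The 14 genes of the CCT chaperonin and prefoldin had medians of 78.9 and 82.6, and the 24 of COPI and COPII vesicle coats 85.5 and 84.3.

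A further 28 top genes were in none of the lists, and those named here, besides PMA1, were picked after their values were seen. STM1, a ribosome-binding protein, read 13.16 and 12.61, and ASC1, a protein of the small subunit, 12.42 and 11.77. EGD1 and EGD2, subunits of the nascent chain complex, read 11.92 and 11.83, and 12.70 and 12.47. TSA1, a peroxiredoxin, read 12.75 and 11.83, and YHB1, a flavohaemoglobin, 12.59 and 13.07. The 14-3-3 proteins BMH1 and BMH2 read 12.51 and 12.13, and 11.69 and 11.67.

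Regulators of transcription and signalling had list medians near the middle of the scale. The 121 DNA-binding transcription factors had median percentiles of 46.5 and 48.0, and the 101 protein kinases 48.8 and 42.5. DNA replication genes stood at 41.7 and 47.6 over 52 genes, and Mediator and SAGA at 45.7 and 43.1 over 37. The spliceosome stood at 39.3 and 42.5 over 54, and the nuclear pore, somewhat higher, at 64.9 and 70.5 over 33. None of the kinases and none of the replication genes reached the top group, which held 4.26% of all genes. In the sample as a whole, fewer cells with a transcript and less of it per cell cannot be told apart, which bears on every gene of the cell cycle.

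Among transcription factors GCN4 and HAC1 stood out, the only ones in the top group. GCN4, the activator of amino acid synthesis, read 11.76 and 12.35. HAC1, the activator of the unfolded protein response, read 11.79 and 12.20. The next, MCM1, a factor of cell cycle and mating genes, read 10.44 and 10.38. SIP4, a gluconeogenic activator, and RFX1, a repressor of DNA damage genes, were silent, at 4.97 and 5.89, and 5.37 and 5.93. The highest kinase was YCK2, a casein kinase of the plasma membrane, at 10.40 and 10.24. MEK1 and IME2, both kinases of meiosis, were silent at 4.67 and 4.89, and 4.87 and 5.36.

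Cyclin genes had medians of 37.5 and 44.97 over 23 genes. CLN3, the G1 cyclin that starts the cycle, read 10.25 and 10.54. The S-phase cyclins CLB5 and CLB6 read 6.89 and 7.68, and 6.18 and 7.64, the latter near background in replicate 1. Cohesin, condensin and Smc5-Smc6 had medians of 22.6 and 33.6 over 24 genes, with 0 silent, against 4.09% of all genes. SMC1 of the cohesin ring read 8.72 and 8.82, and MCD1, its cleaved subunit, 8.19 and 9.16. Their lowest was RAD61. Kinetochore and checkpoint genes lay at 26.1 and 34.8 over 46, from DAD4 of the Dam1 complex, at 9.69 and 10.23, down to NKP1, at 5.96 and 6.32, which was above background in replicate 2 alone.

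Histones were the exception among chromosome genes, with 3 of 10 measured genes in the top group, against 4.26% of all genes. Their medians were 92.8 and 93.9. HHF1, a histone H4 gene with a shared probe set, read 12.94 and 13.13, and HHT2, a histone H3 gene, 12.79 and 13.07. CSE4, the histone H3 of centromeres, was the lowest at 8.21 and 8.82. DNA repair genes were lower than replication genes, with medians of 21.5 and 23.8 over 54. RAD23, of nucleotide excision repair, read 10.33 and 9.42, and MAG1, a DNA glycosylase, 6.20 and 6.12. Autophagy genes were similar in rank, at 20.7 and 18.3 over 30, and ATG14, a lipid kinase subunit, was silent at 5.79 and 5.67.

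The 12 genes nearest to the middle of both arrays came from many functions. TRM2, a tRNA methyltransferase, read 8.41 and 8.37. SSL1, a subunit of the transcription factor TFIIH, read 8.35 and 8.34, and CEG1, the guanylyltransferase that caps mRNA, 8.36 and 8.29. The others were the kinase gene PKH3, the vacuolar iron transporter CCC1, SFT2, NOP19, the exosome subunit MTR3, the lipase TGL5, the vacuolar peptidase DAP2, the sorting nexin SNX4 and SFH1 of the chromatin remodeller RSC, all between 8.27 and 8.43. The middle group held 364 of the 3139 genes in none of the lists, 39 of 313 of transcription and RNA and 17 of 185 of chromosomes and 3 of 244 of translation, beside 9.41% of all genes.

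Meiosis and sporulation were the functions most often silent. Of 82 measured genes, 37 were silent, against 4.09% of all genes, and 0 were in the top group. Early meiotic genes had median percentiles of 4.24 and 5.15, with 15 of 32 silent. SPO11, which makes the double-strand breaks of meiosis, read 5.17 and 5.25. HOP2, which pairs homologous chromosomes, read 3.69 and 4.02, and the strand exchange factors SAE3 and MEI5 read 3.27 and 4.28, and 3.71 and 4.35. All of these lay below the limit in both arrays.

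Middle and late sporulation genes were alike, with medians of 4.53 and 5.10 and 22 of 50 silent. OSW1, of the spore wall, read 4.36 and 3.93. SPR3, a septin of sporulation, read 5.17 and 5.38. A single member stood high, SPO24 at 11.29 and 11.11, at percentiles 94.4 and 93.99. Silence was not complete in either list. Above background in both arrays were 14 of 32 early meiotic genes and 21 of 50 sporulation genes, against 94.1% of all genes. IME4, the mRNA methyltransferase needed to enter meiosis, read 8.54 and 7.998, and REC107, of the break-forming complex, 8.60 and 7.87. The labelled cDNA was double-stranded, so these signals do not tell which strand was transcribed. NDT80, the activator of middle genes, was above background in replicate 2 alone, at 6.01 and 6.23.

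**Figure D3:**
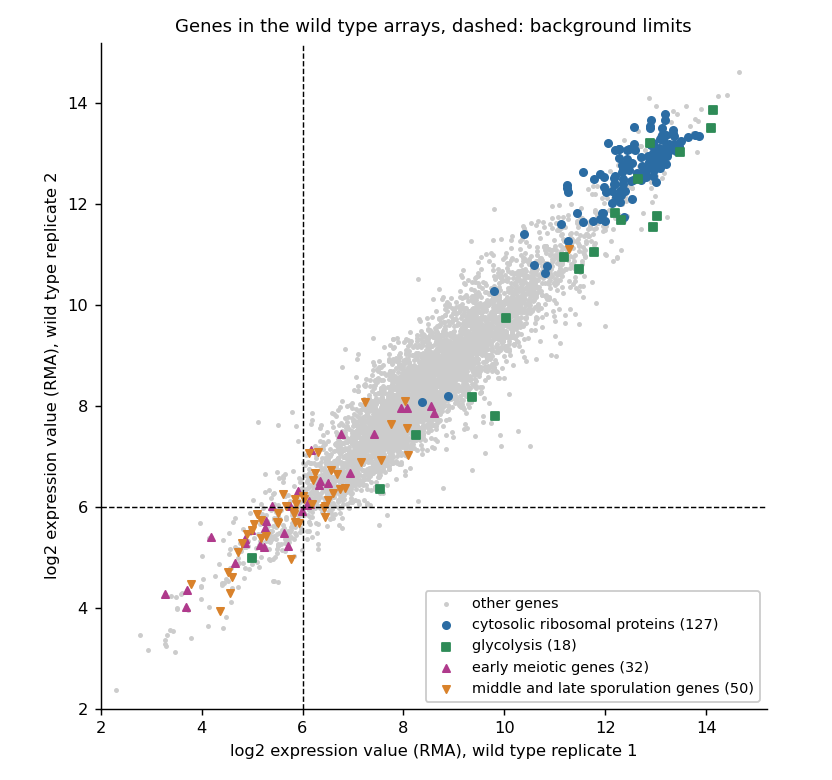
Log2 expression value of each gene in replicate 2 against replicate 1, with ribosomal protein genes (127), glycolysis genes (18), early meiotic genes (32) and sporulation genes (50) marked and background limits dashed. Most ribosomal protein genes gather at the top right, meiotic and sporulation genes lie around the limits, and the glycolysis genes run from GPM2 at 4.99 and 4.98 to TDH3 at 14.14 and 13.86.

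Alpha-specific genes and families of chromosome ends were also low. The 5 measured of 8 listed alpha-specific genes had median percentiles of 5.02 and 10.5. The haploid-specific mating genes stood in the middle, with medians of 56.5 and 63.2 over 21. Among them FUS1, which acts in mating cell fusion, read 6.69 and 7.13. FIG1, a membrane protein in none of the lists, read 3.31 and 3.47. The 38 measured of 61 listed genes of COS, AAD, IMA, FLO and other subtelomeric families had medians of 17.5 and 24.7, with COS12 at 3.38 and 3.55 the lowest. The PAU, DAN and TIR genes, of cell wall and anaerobic growth, had medians of 10.6 and 12.05 over 19 of 30 listed genes, and 13 of the 19 were read by probe sets that match more than 1 sequence.

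Genes with a systematic name alone made up 97 of the 223 silent genes, or 43.5%, against 9.16% of all genes. They held both the lowest and the highest gene of the array. YOL166W-A read 2.30 and 2.37, and YAR010C read 14.64 and 14.61, each through a shared probe set. Above the 90th percentile in both arrays lay 25 such genes. Of these, 16 were read by a shared probe set and 11 overlap another annotated gene. YLR154C-H, at 13.89 and 13.89, overlaps RDN5-2, a 5S ribosomal RNA gene. Because the labelled cDNA was double-stranded, signal of overlapping genes on either strand cannot be told apart here. Only 9 of the 25 had neither feature. The highest of these 9 was YDR524C-B, at 13.84 and 13.64.

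Isozyme and paralog pairs were set side by side in 42 of 43 pairs, with the member known from glucose growth or the major form put first in most. TDH2 had no probe set of its own, which left out its pair with TDH3. The first member read higher in both arrays in 37 pairs and the second in 4, and the order differed between arrays in 1. Because most pairs put the major form first and were chosen with earlier results of these data known, these counts test nothing. Probe sets of 2 genes bind differently, so each difference is one of signal. In 13 pairs the measured values lay over 4 log2 units apart in both arrays. GPM1 read 12.64 and 12.50, while GPM2 was not above background in either array, so the size of that gap is not known. PDC1 lay 7.62 and 6.87 above PDC6, and PMA1 lay 7.25 and 6.71 above its relative PMA2. The elongation factor YEF3 lay 6.54 and 6.68 above HEF3. The glucose-repressed alcohol dehydrogenase ADH2, at 7.12 and 7.53, lay 5.87 and 4.64 below ADH1.

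Oxygen-linked pairs were ordered as aerobic over anaerobic in signal. HYP2 lay 5.12 and 4.71 above ANB1, COX5A 3.04 and 3.05 above COX5B, and the cytochrome c gene CYC1 2.69 and 2.58 above CYC7. The ADP/ATP carrier AAC2 lay 4.41 and 3.81 above AAC3. Constitutive chaperones were above inducible ones, with SSA2 4.42 and 3.76 above SSA4. For Hsp90 the gap was smaller, HSC82 over HSP82 by 1.22 and 1.94.

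In 7 pairs the members lay under 1 log2 unit apart in both arrays, among them the alpha-tubulins TUB1 and TUB3, at 10.20 and 9.68 against 9.92 and 9.65. The second member was higher in GPD1 and GPD2, glycerol-3-phosphate dehydrogenases, where GPD2 read 10.67 and 9.99 and GPD1 10.08 and 8.24. SHM1, the mitochondrial serine hydroxymethyltransferase, read 10.83 and 10.19, against 9.72 and 8.94 for the cytosolic SHM2. The G1 cyclin CLN2 lay above CLN1, and asparagine synthetase ASN2 above ASN1, both by less than 1 log2 unit. The citrate synthases CIT1 and CIT2 changed order, with differences of -0.35 and 0.016.

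**Figure D4:**
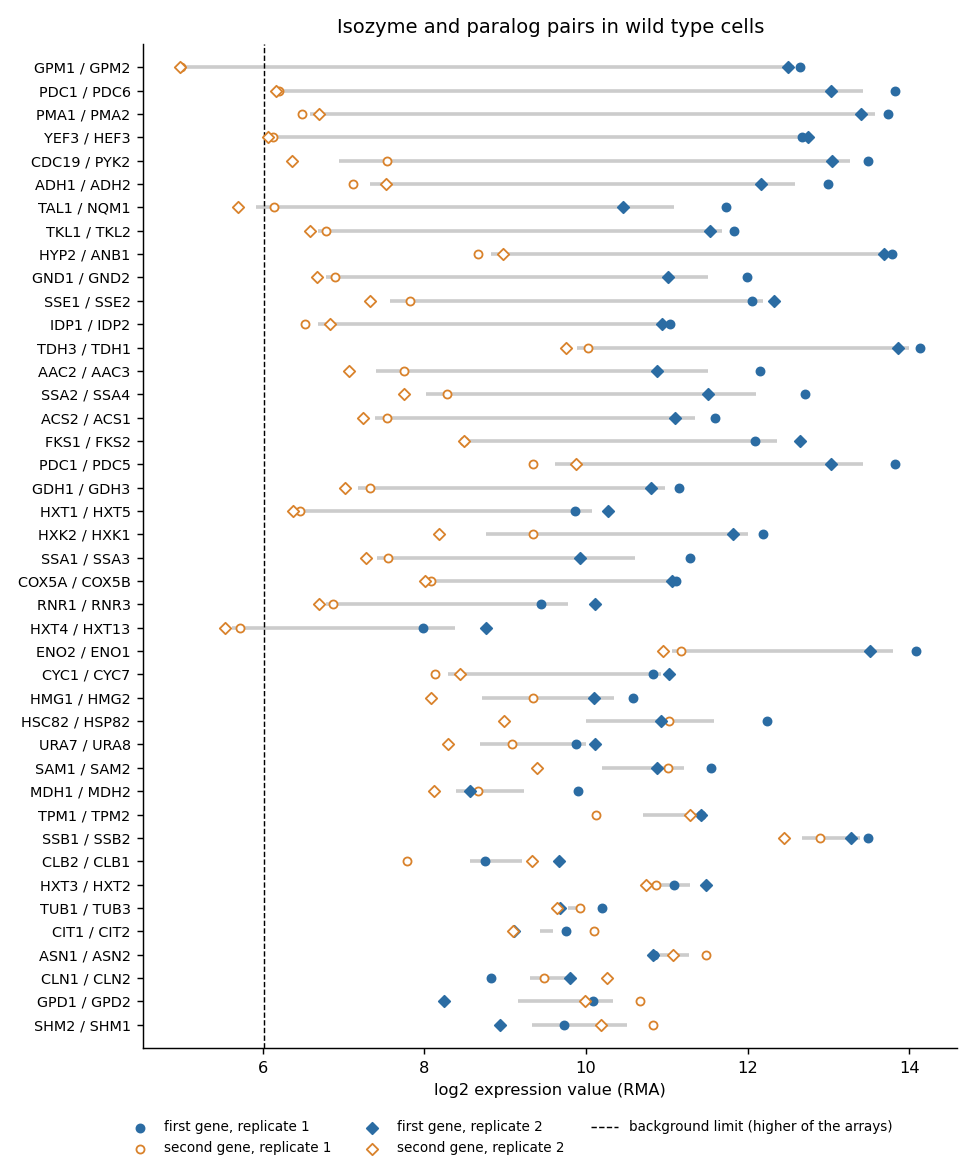
Log2 expression values of both members of 42 isozyme or paralog pairs in replicate 1 (circles) and replicate 2 (diamonds), the first-named gene filled and the second open, joined between their means. Pairs are ordered by mean difference of the measured values, from GPM1 over GPM2 at the top to SHM1 over SHM2 at the bottom, and GPM2 and HXT13 lie left of the background limit in both arrays.

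Gene length and place in the genome differed among the groups, without use in their choice. Lengths are those annotated for each gene and may include introns, so they can exceed the coding length. Ribosomal protein genes had a median of 771 bp. Median gene length was 850 bp in the top group, 1341 bp in the middle and 672 bp in the silent group. Over all genes it was 1236 bp. Without ribosomal protein genes the top group had 1176 bp, and without genes of systematic name alone the silent group had 1066.5 bp. Within 10 genes of a chromosome end lay 39 of the 223 silent genes, or 17.5%, against 4.32% of all genes. In the top group it was 4 of 232, or 1.72%, and all 4 had a systematic name alone. Neighbours in gene order hardly resembled each other in rank. Spearman's rho across 1283 divergent pairs was 0.114 and 0.111, against 0.057 and 0.049 for 2387 tandem and 0.051 and 0.049 for 1319 convergent pairs, as a description over pairs that share genes and arrays.

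**Figure D5:**
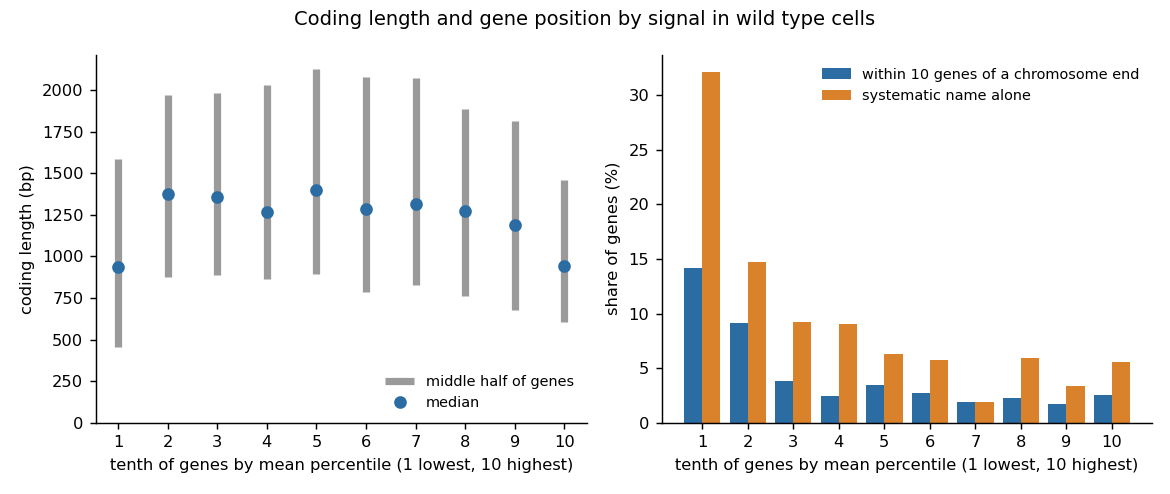
Left, median annotated gene length in bp (points, axis labelled coding length) with its interquartile range (bars), for genes in 10 groups by mean percentile. Right, the share of genes within 10 genes of a chromosome end (blue) and with a systematic name alone (orange). Genes are shorter in the lowest and the highest group, with medians of 939 and 942 bp, and the share near an end is 14.2% in the lowest group and 2.56% in the highest.

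The ranks of the arrays were close but not equal. Across the 5449 genes Pearson's r of log2 values was 0.944 and Spearman's rho 0.919, and genes are not independent replicates. The median gene differed by 5.56 percentile points and 2.26% of genes by over 30 points. By rank, the median difference was 0.899 points in the highest of the 10 groups and 10.7 points in the fifth. Percentiles are bounded at both ends, so these differences do not compare the repeatability of the values.

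The 5 genes with the largest percentile drop from replicate 1 to replicate 2 were HSP42, CHA1, RGI1, HSP30 and BTN2. HSP42, a small heat shock protein, read 10.52 and 7.21, and HSP30, a stress protein of the plasma membrane, 9.61 and 7.07. BTN2, a protein-sorting factor of stressed cells, read 10.28 and 7.51, CHA1, a serine deaminase, 9.92 and 7.20, and RGI1 9.35 and 6.73. Other stress and starvation genes were higher in replicate 2, HSP12 at 8.10 and 8.86 and SNZ1 at 7.93 and 9.05. The 5 largest rises were those of SER3, of serine synthesis, at 6.85 and 9.13, TSC3, of sphingolipid synthesis, at 7.39 and 9.36, and EFG1, JJJ3 and SPG3.

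The rank of some lists also differed between the arrays. The chaperone list had medians of 91.6 and 79.3, trehalose and glycogen 37.2 and 25.1, and iron and copper 50.3 and 34.1, all lower in replicate 2. Higher there were cohesin, condensin and Smc5-Smc6, at 22.6 and 33.6, kinetochore genes, at 26.1 and 34.8, ribosome biogenesis, at 79.8 and 88.5, and cyclins, at 37.5 and 44.97. Technical readings also differed. Over 8 genes with probe sets at both ends, the signal at the 5′ end lay above that at the 3′ end by a median of 0.93 log2 units in replicate 1 and 0.27 in replicate 2. The bioB median, at 10.01 and 9.16, was lower in replicate 2. The part of these readings in the list differences was not tested.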

How the data were processed

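Double-stranded cDNA made from total RNA was cut with DNase I, end-labelled with biotin and hybridised to 1 array per sample, per the labels' protocols. The deposited log2 expression values were made by the authors with RMA (affy), per the submitters' processing notes, with no version in the sources used here. RMA makes the value distributions of the arrays equal, so a difference in total RNA is not seen.

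Groups came from sample titles. Probe sets were named through the platform annotation and NCBI's gene table of assembly R64. That table also gave gene order and gene length (97% of lengths are multiples of 3). Probe sets of a gene were averaged for 47 genes, 125 genes had a probe set shared between sequences, and 3683 probe sets had no symbol and 1 had several. Background limits, percentiles, 55 gene lists and 43 pairs were computed in Python 3.11.15 with pandas 2.3.3, and ranking was checked on simulated arrays. The simulated present genes were set above the limit before noise was added, so that check does not bear on calls near the limit. No test was made, since 1 group was described, and 2 arrays limit the precision.

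Genes named in the text were the 25 highest, the 12 nearest the middle and the 12 lowest, up to 4 high and 3 low members of each list, members of pairs, markers, the 5 most moved per direction between arrays, the 10 highest S. pombe probe sets and RAD61. Silent members were also named. Members, lists and pairs were chosen with earlier results of these data known. After values were seen, 4 wrong symbol matches were taken out of the lists of ribosomal proteins, mitochondrial ribosomal proteins, cohesin and the vacuolar pump. Alternatives were other background limits, other group borders, the brightest probe set, no shared probe sets, the mean of members, values minus the S. pombe median, no ribosomal protein genes and each array alone. Leaving out genes of systematic name alone was chosen after seeing the data. Promoters, proteins and motifs were not analysed here.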

Additional observations from a re-analysis of the deposited data

Results flagged for a closer look

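Probe sets outside the named genes also carried signal. Of 3471 probe sets without a usable gene name and other than controls, 300 (8.64%) lay above background in both wild type arrays, against 61 (3.49%) of the S. pombe probe sets. Above the gene median in both arrays lay 58 of the 3471. Most of the 3471 were dim, with medians of 4.58 and 4.53, near the S. pombe medians of 4.52 and 4.49. These probe sets entered none of the results, and what they read was not analysed here.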

How the results depend on the processing

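The count of silent genes depended on the limit: 223 became 146 with the limit at the 90th percentile of S. pombe signal, 392 at the 99th, and 618 with their median plus 3 scaled median absolute deviations. Groups scale with their borders by construction: the top group held 445 genes above the 90th percentile and 88 above the 98th, and the middle group 142 between the 45th and 55th. With either array left out the middle group held 1089 genes. With the mean of members in place of the median, 14 lists instead of 26 lay above the 75th percentile in both arrays, and 42 of 55 lists moved by more than their spread between arrays. The pentose phosphate pathway went from 82.7 to 59.6, hexose transporters from 12.5 to 30.6, PAU, DAN and TIR genes from 11.3 to 21.4, galactose and maltose genes from 5.51 to 10.9, sporulation genes from 4.82 to 9.89 and early meiotic genes from 4.69 to 9.99. The difference of CIT1 minus CIT2 ran from -0.35 to 0.016 with an array left out. The median gene length of the top group was 1176 bp without ribosomal protein genes. It was 942 bp above the 90th percentile, and 840 to 892 bp with an array left out. Its share near a chromosome end was 3.39% without ribosomal protein genes, 0% without genes of systematic name alone, and 1.47 to 2.94% with an array left out. For the silent group these were 711 to 768 bp and 15.24 to 16.8% with an array left out, and 1066.5 bp and 15.9% without genes of systematic name alone. The count above background stayed within 1.5 times under each alternative run, and so did that of pairs with the first member higher with the brightest probe set or with an array left out. Subtracting the S. pombe median leaves differences within a pair as they are by construction, so it tested nothing there. No paired analysis was possible because the results describe 1 group and come from no test. The 2 arrays, and signal near background, limit ranks among low genes.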
